A study of Mus musculus with 40 samples.

Results

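The comparison concerned the vehicle arm of the GL261 glioma model at a later against an earlier day, that is, the CD11b+ cells of water-treated mice at 28 days post-implantation (DPI) against those at 21 DPI. It used 7 of the 40 samples of the series, namely the 4 vehicle samples of the 28 DPI experiment and the 3 vehicle samples of the 21 DPI experiment, chosen by treatment and by deposited table, and no measured value entered the choice. GL261 is a murine glioma line, here carrying tdTomato and luciferase, that grows in immunocompetent C57BL/6 mice. Male C57BL/6 mice, 10 to 12 weeks old, were implanted with these cells in the right striatum, and an osmotic pump delivered H2O into the tumor from implantation until collection. The hemisphere bearing the tumor was then dissociated, CD11b+ cells were isolated by FACS, and poly-A RNA was sequenced with a stranded library kit.

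Several conditions other than the day changed together between both groups and cannot be told apart from it. Each 21 DPI sample was a pool of 2 animals, while each 28 DPI sample came from 1 animal. The 28 DPI mice were the control arm of an antibody experiment and, according to the methods of the study, had received control IgG intraperitoneally, in addition to the pump, which ran for longer. The groups were deposited in separate tables that had been normalized separately, so values of the 28 DPI table were multiplied by 0.921, the median ratio over 9177 genes, and no p-value was computed between the tables. The sample labels also place the 28 DPI samples under nude mice, whereas the methods of the study give C57BL/6 mice for the GL261 experiments, and the RNA values used here did not settle this.

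CD11b, an integrin subunit encoded by Itgam, is carried by microglia, monocytes, macrophages, neutrophils and part of the dendritic cells, so the sorted cells of a glioma are a mixture called glioma-associated microglia and macrophages (GAMs). Microglia reside in the brain from early development and express Tmem119, P2ry12 and Cx3cr1. Monocytes enter the tumor from the blood, express Ly6c2 and Ccr2, and lose these genes as they mature into macrophages. Interferons, hypoxia, lipid uptake and glucocorticoids each drive recognizable groups of genes in these cells. In such bulk samples, fewer cells of a type and less RNA per cell cannot be told apart.

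Levels are given as RPKM (reads per exon length and per reads sequenced), which allows genes of different length to be compared, and differences as the mean log2(RPKM + 1) at 28 DPI minus that at 21 DPI, with its standard error (SE, n = 3 and n = 4). A gene was counted as higher or lower at 28 DPI when no sample of one day overlapped the range of the other and the difference was at least 1, a 2-fold change. This is a rule of description and not a test. The depth per sample is unknown, because the tables hold no read numbers.

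The samples within each day resembled each other more than samples of different days. Pearson's r across genes, which are not independent replicates, was 0.989 to 0.993 within 21 DPI and 0.988 to 0.991 within 28 DPI, against 0.925 to 0.950 between the days. Between 9353 and 9410 genes reached 1 RPKM at 21 DPI and between 9479 and 9692 at 28 DPI, and the 10 most abundant genes held 14.4% to 14.6% and 16.6% to 19.1% of the summed level. The labels give GL261, there called human, as the cell type, whereas the RNA was that of the sorted mouse cells, and markers of myeloid cells were present on both days: Itgam was at 63.8, 51.2 and 63.4 RPKM at 21 DPI and at 53.3, 61.5, 57.4 and 53.3 RPKM at 28 DPI, and the microglia and macrophage gene Aif1 at 193, 188 and 226 RPKM and 168, 216, 222 and 184 RPKM. Ptprc, which encodes CD45, lay lower at 28 DPI without overlap (41.5, 44.7 and 55.4 against 24.3, 21.5, 24.5 and 24.2 RPKM, difference -0.96, SE 0.13), and was counted as lower without sample 1 of 21 DPI (-1.05).

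Among the 9578 protein-coding genes whose mean reached 1 RPKM, 186 (1.94%) were counted as higher and 464 (4.84%) as lower at 28 DPI, so that 28.6% of the counted genes were higher. That split moved with the scaling between tables. With no scaling 258 genes were higher and 391 lower (39.8% higher), and with upper-quartile scaling 266 and 378 (41.3% higher). These scalings shifted the median difference of all genes by 0.109 and 0.118, while it lay at 0.0098 with the scaling used here. Without the 2-fold limit, 2853 genes (29.8%) had all 28 DPI samples above all 21 DPI samples and 2805 (29.3%) below, which is the background against which each count of non-overlapping genes has to be read. The 5 most abundant protein-coding RNAs were those of Cd74, Ctss, B2m, Psap and Lyz2 at 21 DPI and of Apoe, Cd74, Ctss, mt-Co1 and C1qa at 28 DPI. Among them the lysosomal genes Ctss, a protease that processes antigen, and Psap, the precursor of lipid-degrading cofactors, differed by -0.20 (SE 0.14) and -0.23 (SE 0.11), and Lyz2, the lysozyme of myeloid cells, was at 4458, 3598 and 4278 RPKM at 21 DPI and at 2282, 2653, 2425 and 2553 RPKM at 28 DPI. The median SD of the replicates on the log2 scale was 0.0859 at 21 DPI and 0.113 at 28 DPI.

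**Figure D1:**
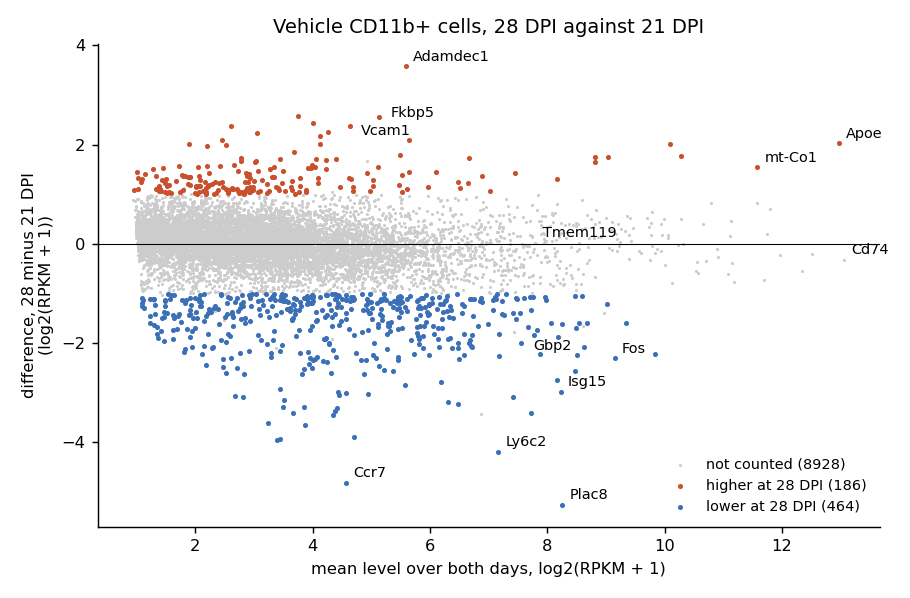
Difference between vehicle CD11b+ cells at 28 and 21 DPI (vertical axis, log2(RPKM + 1), positive when higher at 28 DPI) against the mean level over both days (horizontal axis, log2(RPKM + 1)) for 9578 genes, 1 point per gene. The 186 genes counted as higher lie above 1 and the 464 counted as lower reach -5.26 (Plac8), while Cd74 and Tmem119 lie near 0.

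The deepest differences downwards were genes of monocytes and of migrating dendritic cells. Plac8 (chr5:100553725-100572245, mm10), a gene of inflammatory monocytes, stood at 407, 670.4 and 702 RPKM in the 3 samples at 21 DPI and at 9.53, 12.7, 22.2 and 14.5 RPKM in the 4 samples at 28 DPI, a difference of -5.26 (SE 0.35). Ly6c2 (chr15:75108158-75111970), which encodes the Ly6C antigen by which such monocytes are sorted, went from 185, 303 and 325 RPKM to 8.94, 15.8, 13.1 and 17.8 RPKM (difference -4.19, SE 0.32). The highest 28 DPI sample of each gene was more than 10-fold below the lowest 21 DPI sample. In naive brain of the 21 DPI experiment the means were 4.99 and 1.39 RPKM (n = 3), below both days.

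Of 16 genes listed for monocytes and recruited macrophages, 11 were counted as lower and none as higher, with a median difference of -2.52, and the level summed over the list was 6303 to 7513 RPKM at 21 DPI and 2204 to 2830 RPKM at 28 DPI. Ccr2, the receptor that brings monocytes out of the bone marrow, was at 84.2, 66.9 and 94.7 RPKM and then at 6.45, 6.61, 17.7 and 15.5 RPKM. S100a4, a calcium-binding protein of motile cells, differed by -3.90 (SE 0.36), Ly6i by -3.42 (SE 0.37) and Ifitm6, a myeloid member of the interferon-induced transmembrane family, by -3.37 (SE 0.48). These 4 genes did not overlap between the days in any sample. Of the 5 listed genes not counted, Itga4, an integrin subunit, and Chil3, described further on, overlapped between the days. Ace, which encodes the angiotensin-converting enzyme, and Ramp3, a receptor-modifying protein, were also among the 10 deepest differences: Ace stood at 18.1, 15.6 and 15.5 RPKM at 21 DPI and at 0.454, 0.477, 0.391 and 0.403 RPKM at 28 DPI, and Ramp3 at 17.9, 21 and 19.3 RPKM and 0.195, 0.217, 0.508 and 0.446 RPKM. Both genes passed the filter on low values only through their level at 21 DPI.

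The dendritic cell list behaved alike. Ccr7 (chr11:99144196-99155077), the chemokine receptor that guides mature dendritic cells to lymph nodes, was at 37.5, 47.6 and 49.1 RPKM at 21 DPI and at 0.536, 0.457, 0.947 and 0.581 RPKM at 28 DPI, close to the naive mean of 0.292 RPKM. Ccl22, a chemokine made by mature dendritic cells, was at 31.2, 25.6 and 21.1 RPKM and 1.11, 0.589, 1.72 and 1.27 RPKM, and Cd209a, a lectin of monocyte-derived dendritic cells, at 25.1, 12.3 and 18.6 RPKM and 0.451, 0, 0.548 and 0 RPKM. In all 3 genes every 28 DPI sample lay below 2 RPKM. The naive mean was 0.420 RPKM for Ccl22 but 13.1 RPKM for Cd209a, which at 28 DPI thus lay below naive brain. All 5 members that passed the filter on low values were counted as lower, among them Flt3 (6.41, 4.1 and 4.2 against 0.749, 0.423, 0.65 and 0.528 RPKM), the receptor of the dendritic cell growth factor. The filter could be passed through the 21 DPI group alone, so these 5 do not stand for all 8 members, and the other 3 reached at most 1.28 RPKM. Fscn1, an actin-bundling protein of mature dendritic cells, differed by -2.12 (SE 0.23) but had its highest mean, 439.6 RPKM, in naive brain.

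By contrast, most genes by which resting microglia are recognized overlapped between the days. Tmem119 was at 246, 155 and 255 RPKM at 21 DPI and at 212, 299, 225 and 158 RPKM at 28 DPI (difference 0.03, SE 0.30). Cx3cr1, the fractalkine receptor, differed by 0.20 (SE 0.21) and P2ry12, a purinergic receptor, by -0.23 (SE 0.24), or by -0.44 without sample 2 of 21 DPI. In all 3 genes the samples of both days overlapped. Of 16 homeostatic genes, 1 was counted as lower, Slc2a5, a fructose transporter (16.3, 10.3 and 20.8 against 3.99, 9.13, 6.09 and 4.16 RPKM), and the other 15 overlapped. The median difference of the list was -0.15. These counts moved when single samples were left out: without sample 2 of 28 DPI 6 of 16 genes lay lower without overlap and 2 were counted (median -0.31), and without sample 2 of 21 DPI 7 lay lower and 2 were counted (median -0.30). Fewer samples make non-overlap easier for every gene, and its share over all genes was 29.3% with all samples and was not computed without these. Over all genes, 447 and 457 were counted as lower in these 2 settings, against 464 with all samples. Without sample 4 of 28 DPI the median was -0.06. Against naive brain both days were low: the list summed to 23280 to 24131 RPKM in naive samples, 2496 to 3342 RPKM at 21 DPI and 2451 to 3462 RPKM at 28 DPI.

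**Figure D2:**
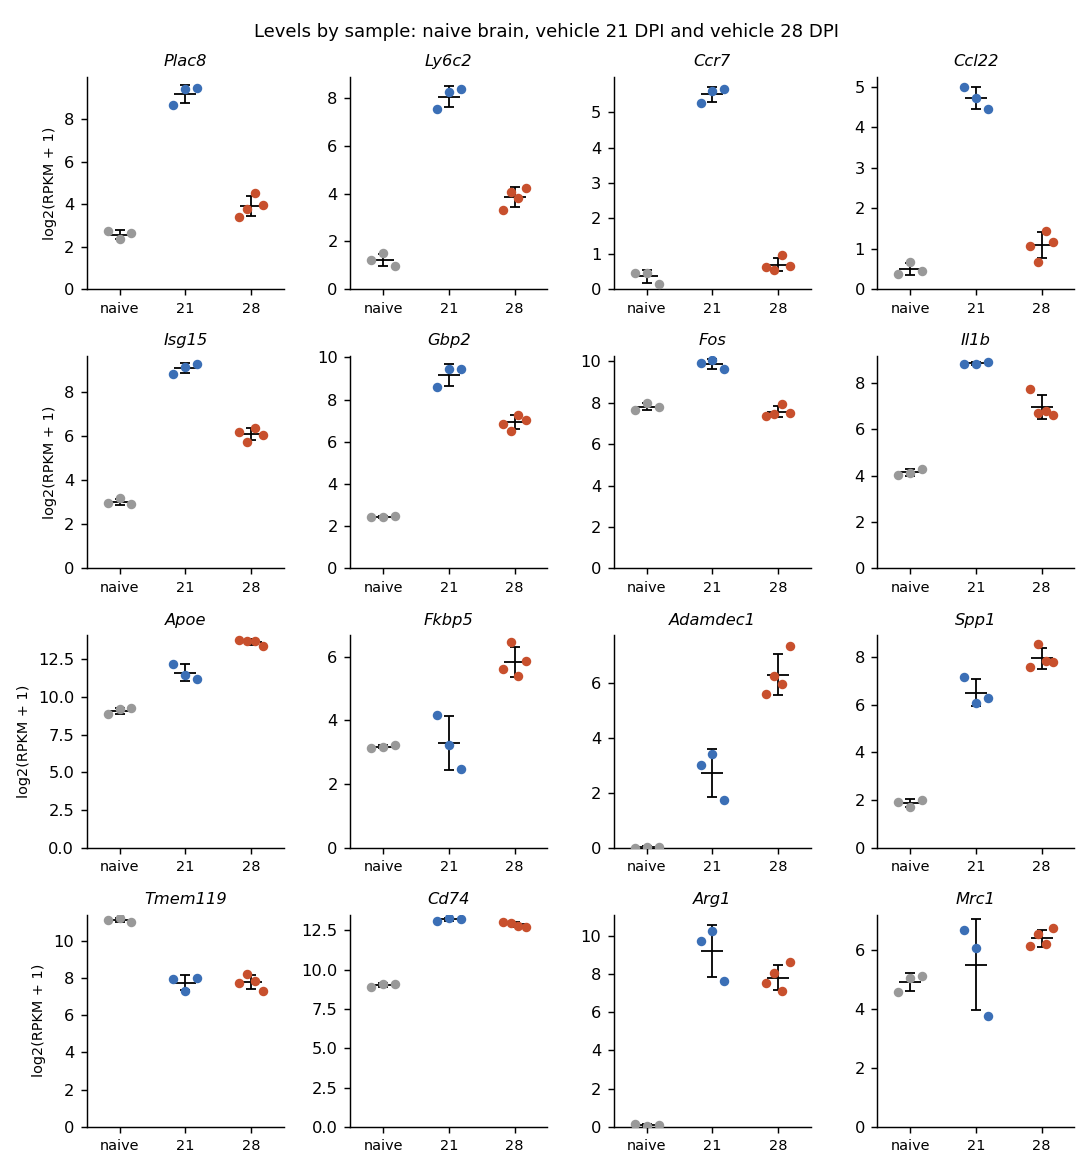
Level of 16 genes in log2(RPKM + 1) (vertical axes) in naive brain of the 21 DPI experiment (gray, n = 3), vehicle at 21 DPI (blue, n = 3) and vehicle at 28 DPI (red, n = 4), 1 point per sample with the mean and SD as bars. Plac8, Ly6c2, Ccr7 and Ccl22 lie below all 21 DPI samples at 28 DPI, Apoe, Fkbp5, Adamdec1 and Spp1 lie above all 21 DPI samples, Tmem119 overlaps, and Arg1 and Mrc1 show 21 DPI sample 3 apart from the other samples of that day.

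Interferon response genes were lower at 28 DPI, and the type I interferon list held more genes counted as lower than any other list. Type I interferons act through a transcription factor complex of STAT and IRF proteins that binds paired GAAA repeats in promoters, and interferon-gamma acts in part through IRF1, which binds a similar repeat. Because both groups of genes were lower together, the promoters of Isg15, Rsad2 and Gbp2 are shown with that repeat. The sequences are from RefSeq on GRCm38.p6, the assembly behind mm10, 250 bases before to 50 bases after the start of transcription, 5′ to 3′ on the strand of the gene, with each match in capitals. A match was GAAA, then any 2 bases, then GAAA, on either strand, and where matches overlap the whole run is in capitals. Isg15 lies at chr4:156200769-156201068 (minus strand), Rsad2 at chr12:26456403-26456702 (minus strand) and Gbp2 at chr3:142620413-142620712 (plus strand).
Isg15: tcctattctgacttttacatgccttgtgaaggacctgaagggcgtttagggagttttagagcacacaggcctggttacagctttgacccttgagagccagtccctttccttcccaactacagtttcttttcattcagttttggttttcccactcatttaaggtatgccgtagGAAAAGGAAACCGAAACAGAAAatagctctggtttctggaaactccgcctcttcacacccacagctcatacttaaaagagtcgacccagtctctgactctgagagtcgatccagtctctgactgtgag
Rsad2: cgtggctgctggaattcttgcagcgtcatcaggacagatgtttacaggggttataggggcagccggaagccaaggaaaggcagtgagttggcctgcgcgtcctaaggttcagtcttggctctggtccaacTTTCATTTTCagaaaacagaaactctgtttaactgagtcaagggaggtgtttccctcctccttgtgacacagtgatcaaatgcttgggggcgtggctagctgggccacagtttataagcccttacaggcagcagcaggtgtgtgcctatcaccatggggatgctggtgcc
Gbp2: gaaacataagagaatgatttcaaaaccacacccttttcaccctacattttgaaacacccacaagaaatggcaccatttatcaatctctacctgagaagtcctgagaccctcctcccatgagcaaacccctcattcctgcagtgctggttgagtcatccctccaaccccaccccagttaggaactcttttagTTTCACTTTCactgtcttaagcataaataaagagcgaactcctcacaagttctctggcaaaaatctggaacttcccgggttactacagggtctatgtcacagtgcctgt
Isg15 held 3 overlapping matches that began at 78, 72 and 66 bases before the start, and Rsad2 and Gbp2 held 1 match each on the opposite strand, at 120 and 59 bases before it. A match is a description of these letters and not a mapped binding site. The repeat was in 3.99% of all 27025 genes with a promoter in the table and in 4.21% of the 7698 compared genes that had one. It was in 59 of 368 genes counted as lower (16.0%) and in 6 of 129 counted as higher (4.65%). Among the listed genes with a promoter it was in 12 of 16 of the type I interferon list, in 9 of 11 of the interferon-gamma list, in 3 of 12 of the MHC class I list and in 0 of 16 immediate early genes.

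Isg15, a ubiquitin-like protein attached to other proteins during antiviral responses, was at 443, 549 and 602 RPKM at 21 DPI and at 71, 51, 80.4 and 64.7 RPKM at 28 DPI (difference -2.98, SE 0.19). Rsad2, which encodes viperin, an enzyme that makes an antiviral nucleotide, went from 62.1, 65.2 and 82.6 RPKM to 14.9, 9.17, 8.63 and 11.8 RPKM. Usp18, the protease that removes ISG15, and Oas3, a sensor of double-stranded RNA, differed by -2.53 (SE 0.18) and -2.28 (SE 0.14). The lowest 21 DPI sample of each was above the highest 28 DPI sample, and the 28 DPI samples in turn stood above the naive means of 7.09, 0.695, 1.78 and 0.787 RPKM. Of 22 type I interferon genes, 18 were counted as lower and none as higher, with a median of -1.74, against 0.0098 for all compared genes. Ifit1bl1, a relative of Ifit1 outside the list, was among the 10 deepest differences (-3.44, SE 0.16).

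Interferon-gamma genes followed. Gbp2, a guanylate-binding protein that attacks the vacuoles of microbes, was at 381, 709.8 and 708 RPKM and then at 113, 91.6, 156 and 132 RPKM (difference -2.24, SE 0.34), and the sample lowest for Gbp2 at 21 DPI, sample 1, was also lowest for the GTPases Tgtp1, Tgtp2 and Igtp. Nos2, which makes nitric oxide, was at 10.1, 29 and 40.3 RPKM at 21 DPI and at 4.59, 2.46, 2.93 and 3.31 RPKM at 28 DPI. It differed between the pools of 21 DPI and yet did not overlap with 28 DPI. Tgtp1 and Tgtp2 are near-identical copies, so their separate levels (-2.51 and -2.20 as differences) are uncertain. Of 16 genes, 10 were counted as lower and none as higher (median -1.33).

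Antigen presentation genes differed by less. In the MHC class I pathway all 14 listed genes lay lower at 28 DPI without overlap, against 29.3% of all genes. Of these, 8 passed the 2-fold limit, against 4.84% of all genes, with a median of -1.06. Tap1, which carries peptides into the endoplasmic reticulum, was at 130.3, 181 and 176 RPKM against 76.8, 65.1, 65.6 and 78.8 RPKM, Psmb9, an immunoproteasome subunit, at 49.2, 66.2 and 67.2 RPKM against 23.8, 24.9, 30.3 and 27.3 RPKM, and Tapbp, which holds the peptide transporter to MHC, differed by -1.14 (SE 0.12). B2m, the common light chain, was at 5561, 6299 and 6675 RPKM and 4202, 4653, 3902 and 4049.6 RPKM (difference -0.56, SE 0.10). The count of 8 rests on genes near the 2-fold limit: it was 5 with no scaling, 4 with upper-quartile scaling and 5 without sample 2 of 21 DPI. H2-Q7 (-1.20) has close copies, so its level is uncertain.

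MHC class II genes remained among the most abundant RNAs on both days. Cd74, the invariant chain, was at 8893, 9818 and 9639.9 RPKM at 21 DPI and at 8542, 7966, 7114 and 6854 RPKM at 28 DPI, a difference of -0.31 (SE 0.09), and H2-Ab1, a class II beta chain, differed by -0.77 (SE 0.11). Only Ciita of the 10 listed genes, the transactivator of this locus, passed the 2-fold limit (36.8, 47.2 and 41.5 against 16, 13.4, 23.3 and 19 RPKM, difference -1.20). Of the 10, 8 lay lower without overlap, against 29.3% of all genes, and the median was -0.46. With no scaling and with upper-quartile scaling 4 lay lower without overlap. In naive brain the list summed to 960 to 1078 RPKM, against 16055 to 17777 RPKM at 21 DPI and 11843 to 14535 RPKM at 28 DPI.

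Immediate early genes, which respond within minutes to stimuli and are also known to respond to the dissociation of tissue, were lower at 28 DPI. Fos was at 959, 1087 and 786 RPKM at 21 DPI and at 163, 174, 247 and 181 RPKM at 28 DPI, near the naive mean of 224 RPKM (SD 26.4). Atf3, a stress-response transcription factor, differed by -2.32 (SE 0.28), Zfp36, which degrades cytokine mRNAs, by -2.08 (SE 0.13), and Klf2, a quiescence factor, by -2.34 (SE 0.27). In these 4 genes the days did not overlap. Of 19 genes, 13 were counted as lower and none as higher (median -1.34). Of the stress lists, 2 of 11 heat shock chaperones were counted as lower, the near-identical pair Hspa1a and Hspa1b, both under 6 RPKM in every sample, and 2 of 12 endoplasmic reticulum stress genes, Hspa5 (272, 262 and 258 against 112, 112, 155 and 119 RPKM) and Pdia6, neither of which passed the limit with no scaling or with upper-quartile scaling. The part of tissue handling, which may have differed between the experiments, was not tested.

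Glycolytic and hypoxia-induced genes were lower as well. Slc2a1, the main glucose transporter, was at 74.5, 91.7 and 105 RPKM at 21 DPI and at 43.6, 28.3, 33.5 and 28.6 RPKM at 28 DPI (difference -1.41, SE 0.20). Pfkp, a phosphofructokinase, differed by -1.54 (SE 0.11), and Ndrg1 and Ankrd37, which are induced by low oxygen, by -2.20 (SE 0.16) and -1.69 (SE 0.14). All 18 genes that passed the filter lay lower without overlap, against 29.3% of all genes. By at least 2-fold 12 of them were lower, against 4.84% of all genes (median -1.12). Vegfa, the vascular growth factor, spread widely at 28 DPI, at 15.5, 8.84, 5.18 and 1.96 RPKM against 25, 29.4 and 26.7 RPKM at 21 DPI. Nuclear genes of oxidative phosphorylation stood apart from that group: none of 23 passed the limit, and their median was -0.13.

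Most of the counted cytokine and chemokine genes were lower at 28 DPI. Il1rn, the antagonist of the interleukin-1 receptor, was at 95.8, 121 and 162 RPKM at 21 DPI and at 11.1, 17.9, 23.1 and 18.6 RPKM at 28 DPI, and Il1b itself at 446, 439 and 473 RPKM and 208, 103, 109.8 and 95.5 RPKM. Osm, a cytokine of the interleukin-6 family, differed by -2.06 (SE 0.27). Of 12 cytokine genes that passed the filter, 5 were counted as lower, also Il6 and Il15, and none as higher. Of 18 chemokines 7 were lower, among them Ccl2 and Ccl7, the ligands of CCR2, and Cxcl10, an interferon-induced attractant of T cells. Ccl2 was at 69.7, 37.5 and 57.9 RPKM and 6.71, 8.43, 14.9 and 11.8 RPKM, Ccl7 at 56.5, 28.1 and 27.7 RPKM and 2.46, 2.93, 4.98 and 4.55 RPKM, and Cxcl10 at 207, 212 and 295 RPKM and 52.3, 32.4, 58.6 and 54.4 RPKM. Both ligands were thus lower at 28 DPI together with Ccr2, the gene of their receptor. Ccl3, an inflammatory chemokine of macrophages, was the only chemokine counted as higher, at 89.8, 49 and 42.6 RPKM against 121, 136, 180.2 and 113 RPKM, and its call was chosen for naming after its value was seen.

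Among checkpoint and co-stimulatory molecules, Cd274, which encodes PD-L1, was at 71.7, 119 and 103 RPKM at 21 DPI and at 51.6, 30.6, 30.8 and 42.9 RPKM at 28 DPI (difference -1.31, SE 0.28). Pdcd1lg2, which encodes PD-L2, was at 51.7, 95.5 and 16.6 RPKM and 2.42, 6.4, 4.37 and 5.71 RPKM, and Cd40, a co-stimulatory receptor of antigen-presenting cells, differed by -1.83 (SE 0.22). Lilrb4a, an inhibitory receptor, was the gene of this list counted as higher, at 3.34, 3.19 and 2.75 RPKM and 8.75, 7.72, 10.7 and 11.2 RPKM. In all, 3 of 13 were lower and 1 higher, and the median was -0.10, or 0.022 with no scaling.

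**Figure D3:**
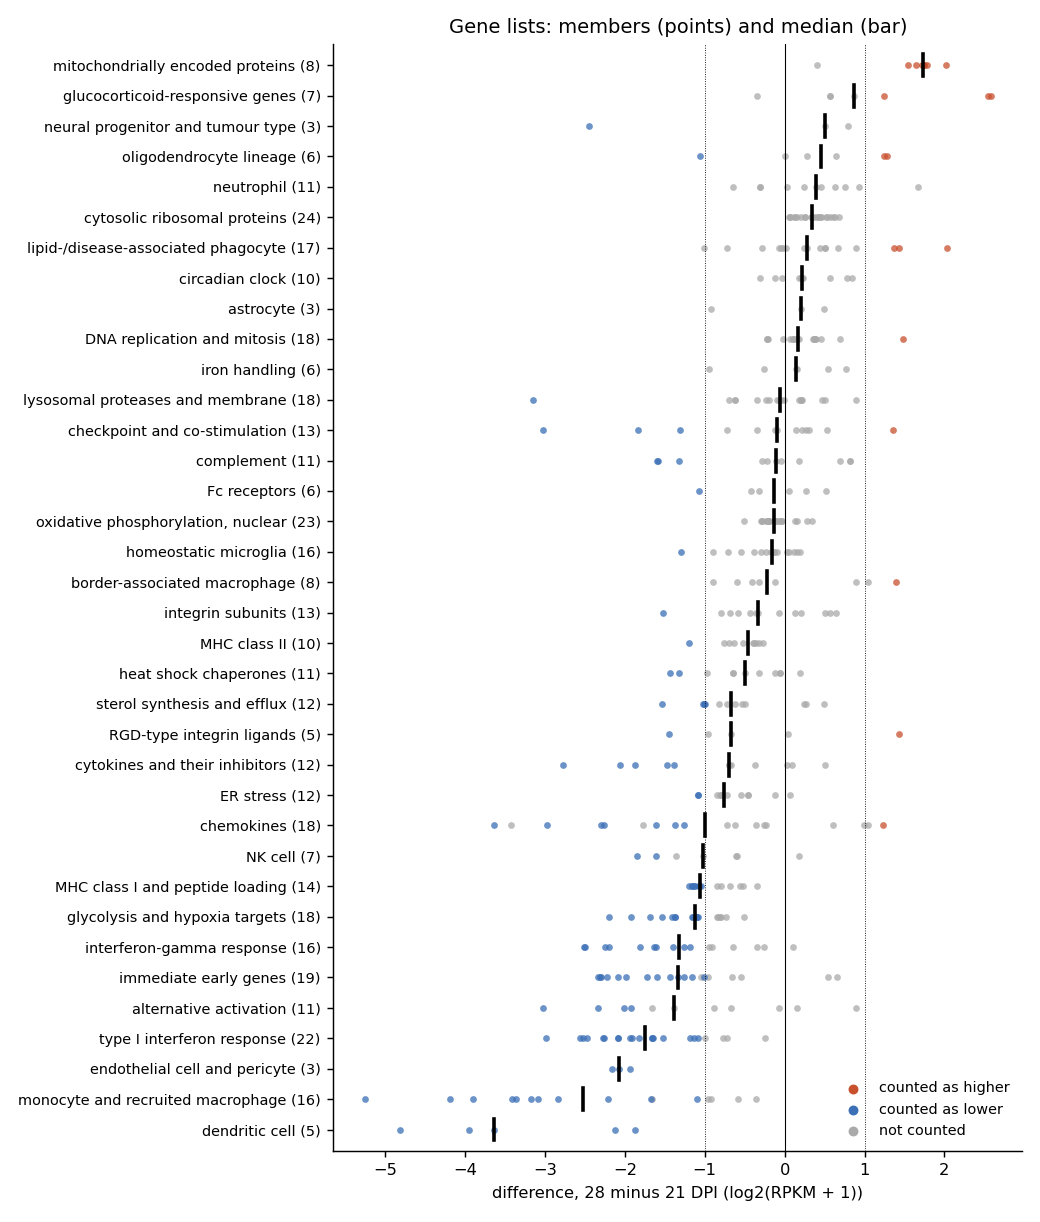
Difference between 28 and 21 DPI in vehicle CD11b+ cells (horizontal axis, log2(RPKM + 1)) for the members of each gene list with at least 3 members past the filter, their number in parentheses, with 1 point per gene and the median as a black bar. Dotted lines mark a 2-fold change. By median, the dendritic cell, monocyte, endothelial and pericyte, and type I interferon lists lie farthest left, in this order. The mitochondrially encoded genes lie farthest right, while homeostatic microglia lie near 0.

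On the other side, Apoe (chr7:19696109-19699188), the lipid carrier that phagocytes take up and secrete, was the most abundant protein-coding RNA at 28 DPI. It was at 4755, 2790.0 and 2293 RPKM at 21 DPI and at 14015, 13618, 13165 and 10467 RPKM at 28 DPI (difference 2.03, SE 0.33), against a naive mean of 546 RPKM. Spp1, which encodes osteopontin, the integrin ligand that the 7aaRGD peptide was designed to compete with, was at 142, 65.4 and 77.2 RPKM and 189, 375, 225 and 223 RPKM, with no overlap. Cd63, a tetraspanin of lysosomes, differed by 1.37 (SE 0.35). These were the 3 of 17 lipid- and disease-associated phagocyte genes counted as higher; none was lower and the median was 0.28. Of the 5 RGD-type integrin ligands past the filter, Spp1 was the one counted as higher and Thbs1, thrombospondin, the one counted as lower (210.1, 111 and 138 against 94.1, 58.7, 49.3 and 30.0 RPKM). In mice given 7aaRGD, 0 of these 5 genes lay higher at 28 DPI without overlap, Spp1 included, and 2 lay lower.

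The largest difference upwards was that of Adamdec1 (chr14:68563380-68582095), a secreted metalloprotease of macrophages, at 7.01, 9.81 and 2.34 RPKM at 21 DPI and 48.2, 76.6, 61.5 and 165 RPKM at 28 DPI (difference 3.58, SE 0.63). It was near 0 in naive brain. Genes known to respond to glucocorticoids came next. Fkbp5 (chr17:28399094-28517527), a chaperone of the glucocorticoid receptor and its standard target, was at 17, 8.3 and 4.58 RPKM and 48.3, 87.1, 40.6 and 57.7 RPKM, Klf9, a transcription factor, at 4.59, 2.7 and 1.61 RPKM and 17.6, 29.5, 19.2 and 22.1 RPKM, and Zbtb16, another target, at 0.309, 0.17 and 0.228 RPKM and 2.56, 1.65, 2.11 and 1.5 RPKM. Each lay higher in all 4 samples at 28 DPI. Of 7 listed genes, 3 were counted as higher and none as lower, with a median of 0.87. Zbtb16 passed the filter only through its level at 28 DPI, and without sample 1 of 28 DPI it did not, which left 2 of 6 counted. Per1, which belongs both to this list and to the circadian clock, overlapped between the days (0.57, SE 0.29, and 0.37 without sample 2 of 28 DPI), and none of 10 clock genes past the filter was counted in either direction.

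Other genes among the 10 largest differences upwards were of mixed function. Vcam1, an adhesion molecule that binds integrin alpha4beta1, was at 12.5, 6.69 and 3.4 RPKM against 37.8, 48.4, 25.3 and 50.5 RPKM, Gpx3, a secreted peroxidase, at 9.5, 4.43 and 3.82 RPKM against 22.3, 29.9, 31.8 and 37.6 RPKM, and Pik3ip1, an inhibitor of PI3 kinase, at 1.61, 2.12 and 1.92 RPKM against 16, 10.6, 11.2 and 13 RPKM. Sult1a1, a sulfotransferase, reached 25.9 ± 5.68 RPKM (SD, n = 4) at 28 DPI from 4.1 ± 2.03 RPKM (SD, n = 3), still below the naive mean of 36.4 RPKM. Dst, a cytoskeletal linker, and Mrgpre, an orphan receptor, differed by 2.38 (SE 0.12) and 2.10 (SE 0.19). In these 6 genes all 28 DPI samples were higher. Dst, with a mean of 0.970 RPKM at 21 DPI, passed the filter only through its level at 28 DPI. H2-M2, a non-classical MHC class I gene, differed by 2.16 (SE 0.92), and by 1.30 without sample 3 of 21 DPI, where it was at 0.741 RPKM.

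Mitochondrially encoded RNA was also more abundant at 28 DPI. mt-Co1 was at 1605, 1655 and 1408 RPKM at 21 DPI and at 3927, 4945, 5579 and 3867 RPKM at 28 DPI, mt-Nd1 at 492, 425 and 369.7 RPKM and 1542, 2028, 2007 and 1436 RPKM, and mt-Cytb at 597, 570.5 and 498 RPKM and 1549, 2228, 2374 and 1602 RPKM. Of 13 such genes, a list added after the data were seen, 8 passed the filter and 7 of those were counted as higher (median 1.73). The other 5, mt-Co2, mt-Co3, mt-Atp6, mt-Atp8 and mt-Nd4l, were listed at no more than 0.254 RPKM in every sample, and since they are encoded beside abundant ones, a loss in the authors' counting cannot be told apart from a low level. The summed level of the list, which lacks these 5, was 2908 to 3458 RPKM at 21 DPI and 8794 to 12812 RPKM at 28 DPI. Poly-A selection and RNA quality are known to bear on such transcripts, and their part in this difference was not tested. Cytosolic ribosomal protein genes lay slightly higher: 20 of 24 did not overlap, against 29.8% of all genes, but none reached 2-fold and the median was 0.35. In mice given 7aaRGD, 6 of these genes lay higher and 6 lower at 28 DPI without overlap, with a median of 0.049.

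Of 11 complement genes 3 were counted as lower and none as higher. C1qa, part of the initiating C1q complex, was at 3191, 2479 and 2465 RPKM at 21 DPI and at 4548, 4956, 4093 and 3922 RPKM at 28 DPI, below the naive mean of 5474 RPKM. C3, the central component, was at 489, 787 and 409 RPKM and 156, 229, 150.2 and 187 RPKM, Cfb, factor B of the alternative pathway, at 43.4, 66.2 and 63.8 RPKM and 17.5, 22, 16.4 and 17.3 RPKM, and Cfp, properdin, differed by -1.33 (SE 0.20). These last 3 were those counted as lower, and the median of the list was -0.11, or 0.0020 with no scaling. Among 6 Fc receptors only Fcgr1, the high-affinity IgG receptor, passed the limit downwards (-1.07, SE 0.12), and it lost its count with no scaling, with upper-quartile scaling and without sample 3 of 21 DPI (-0.997), while Fcgr3 lay higher (0.51, SE 0.07).

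Sterol genes were near the limit. Of 12 past the filter 4 were counted as lower, 1 with no scaling and 2 without sample 2 of 21 DPI, and the median was -0.67. Srebf2, the sterol-sensing transcription factor, was at 28.2, 29.6 and 26.2 RPKM at 21 DPI and at 12.4, 11.8, 14.4 and 14.6 RPKM at 28 DPI (difference -1.02, SE 0.09), and Nr1h3, the liver X receptor, differed by -1.0 (SE 0.19). Neither remained counted with no scaling. Srebf2 differed by -0.98 without sample 2 of either day, and Nr1h3 by -0.91, -0.97 and -0.87 without sample 1 or 4 of 28 DPI or sample 3 of 21 DPI. Of 18 lysosomal genes 1 passed the limit, downwards, which is near the share of all genes counted as lower (4.84%). It was Ctsk, a collagen-degrading cathepsin (18.2, 27.5 and 12.6 against 1.15, 1.52, 0.569 and 1.78 RPKM), while Ctsd, the main aspartic protease, overlapped (0.51, SE 0.22).

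Of 13 integrin subunits past the filter, 1 was counted as lower and none as higher. This is near the shares over all genes, 4.84% and 1.94%. Itgb5, the beta5 chain that pairs with alphav in 1 of the integrins that the peptide of the other arms was designed to block, was at 221, 166 and 212 RPKM at 21 DPI and at 269, 349, 297 and 268 RPKM at 28 DPI, and Itgb1, the most widely shared beta chain, at 101, 97.8 and 100.2 RPKM and 68.8, 68.7, 60.2 and 66.7 RPKM. The 1 counted as lower was Itgb7, a leukocyte beta chain (69, 72.1 and 97.2 against 29.5, 20.5, 28.9 and 29.1 RPKM). The cell cycle list also moved little. Mki67, a marker of dividing cells, was at 2.83, 5.01 and 2.55 RPKM and 10.3, 8.59, 13.1 and 13 RPKM and was the 1 of 18 genes counted as higher, whereas Pcna, the sliding clamp of DNA replication, differed by -0.23 (SE 0.07). Of the 6 iron-handling genes past the filter none was counted, and Hmox1, heme oxygenase, overlapped (0.54, SE 0.40, and 0.87 without sample 2 of 28 DPI).

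Genes of alternative activation could not be read from means alone, because the 3 samples at 21 DPI disagreed. Arg1, which encodes arginase, was at 845, 1224 and 201 RPKM at 21 DPI and at 183, 264, 136 and 391 RPKM at 28 DPI. Chil3, a chitinase-like protein, was at 709.6, 943 and 187 RPKM and 86.4, 189, 175 and 216 RPKM, and Ccl24, a chemokine of eosinophils, at 236, 427 and 6.28 RPKM and 2.45, 15.5, 10.9 and 6.38 RPKM. In all 3 genes sample 3 of 21 DPI was far below the other two pools and within the range of 28 DPI, so the days overlapped. Without it all 3 were counted as lower, Arg1 by -2.17, Chil3 by -2.37 and Ccl24 by -5.24. Mrc1, the mannose receptor, was lowest in the same pool of 21 DPI (99.5, 65.9 and 12.5 RPKM) but had a level of 68.1, 91.1, 71.6 and 104 RPKM at 28 DPI, so that its difference was 0.89 with all samples, 1.46 and counted as higher without sample 1 of 21 DPI and 0.02 without sample 3. Of the 11 genes past the filter, 4 were counted as lower, Pdcd1lg2, Mgl2, Clec10a and Vegfa, and none as higher, with a median of -1.39. Without sample 3 of 21 DPI, 7 were lower. Without sample 2 of 21 DPI the median was -0.86.

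Markers of other cells differed widely in their summed level. The T cell list summed to 0.991 to 6.12 RPKM at 21 DPI and 1.16 to 2.00 RPKM at 28 DPI, with no member past the filter. Neutrophil genes summed to 139 to 284 RPKM and 209 to 421 RPKM, with none of 11 counted, although S100a9 (94.7, 41.1 and 30.6 against 81.2, 71.8, 165 and 51.7 RPKM) and Retnlg (31.5, 11.9 and 3.89 against 20.6, 59.7, 34.9 and 56.2 RPKM) were counted as higher without sample 1 of 21 DPI (differences 1.21 and 2.34), and Retnlg also without sample 1 of 28 DPI (1.96). Natural killer cell genes summed to 287 to 602 RPKM and 106 to 258 RPKM, mostly from Ccl5, a chemokine of lymphocytes, and 2 of 7 were lower, Ccl5, which overlapped between the days with upper-quartile scaling, and Klrk1, an activating receptor (6.3, 8.49 and 10.5 against 1.31, 1.31, 2.23 and 1.51 RPKM), and 4 without sample 1 of 21 DPI. Their median of -1.02 was -0.61 without sample 1 of 28 DPI. Of 8 endothelial and pericyte genes 3 passed the filter and were counted as lower, among them Kdr, a receptor of VEGF (6.38, 7.18 and 7.38 against 1.09, 0.809, 0.800 and 0.889 RPKM), which macrophages and dendritic cells can also express and which passed only through its level at 21 DPI. Over all 8 genes with no filter the median was -0.16, with 3 lower and 1 above without overlap. The endothelial list summed to 23.8 to 44.9 RPKM and 5.71 to 11.2 RPKM. Whether these cells had a part in the other differences was not tested.

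Genes of the oligodendrocyte lineage were measured on both days, and their list summed to 49.5 to 57.7 RPKM at 21 DPI and 44.6 to 60.0 RPKM at 28 DPI. Olig1, a transcription factor of oligodendrocyte precursors, was at 4.36, 2.78 and 5.09 RPKM at 21 DPI and at 9.78, 13.6, 15.4 and 7.43 RPKM at 28 DPI, and Sox10, another one, at 2.04, 1.86 and 2.83 RPKM and 5.71, 7.87, 7.97 and 5.43 RPKM. Cnp, a myelin enzyme, was lower at 28 DPI (-1.06, SE 0.16) but not counted with no scaling, with upper-quartile scaling, without sample 1 of 28 DPI (-0.97) or without sample 2 of 21 DPI (-0.93). Of the 3 neural progenitor and tumor-type genes past the filter, 2 lay higher at 28 DPI without overlap, and the median was 0.50. The 1 counted as lower was Vcan, a matrix proteoglycan that monocytes also make, at 9.67, 4.09 and 6.26 RPKM and 0.382, 0.195, 0.688 and 0.18 RPKM. Vcan passed the filter only through its level at 21 DPI. Of border-associated macrophage genes 1 of 8 was counted as higher, Stab1, a scavenger receptor (32.6, 17.5 and 23.7 against 52.9, 65.1, 83.4 and 60.0 RPKM), and 3 without sample 1 of 21 DPI, where the median of that list turned from -0.22 to 0.16. Siglec1, a sialic acid-binding lectin of the same list, lay lower without overlap but under 2-fold (66.5, 52.7 and 43.2 against 21.4, 31, 30.3 and 31.6 RPKM), and was counted as lower without sample 3 of 21 DPI (-1.04).

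Whether the difference between the days depended on the peptide was the single question that could be tested, because a factor that is constant for a gene within a table cancels when the same difference is taken in mice that received 7aaRGD, the integrin-blocking peptide, in place of water. 7aaRGD samples (3 at 21 DPI, 4 at 28 DPI) came from the same 2 tables and shared the conditions listed above. By the same rule of description 176 genes (1.84%) were higher and 517 (5.40%) lower at 28 DPI with 7aaRGD, 117 and 407 of which were also counted with vehicle. The 117 were 62.9% of the vehicle and 66.5% of the 7aaRGD genes counted as higher, and the 407 were 87.7% and 78.7% of those counted as lower. Of the main examples, Plac8 differed by -5.26 with vehicle and -4.81 with 7aaRGD, Isg15 by -2.98 and -3.35, Fos by -2.30 and -2.13, Apoe by 2.03 and 1.96, and Fkbp5 by 2.55 and 2.98. The values of both treatments had the same sign in each of these 5 genes, which had large differences with vehicle. The sign was also the same in 183 of the 186 genes counted as higher and 463 of the 464 counted as lower. Since both treatments shared the conditions that changed with the day, this agreement is not independent support for an effect of the day. Without overlap, 170 of the 186 lay higher and 457 of the 464 lower with 7aaRGD as well. Spp1 was not among the 170.

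In limma's test of the difference between the 2 day differences over 9616 genes, 0 genes (0%) passed an adjusted p of 0.05 (Benjamini-Hochberg), 811 had an unadjusted p under 0.05, and the smallest adjusted p was 0.0566. The genes at that value included Sox10, which differed by 1.25 with vehicle and -0.10 with 7aaRGD (interaction 1.35, SE 0.213). For Arg1 the differences were -1.39 and 0.55 (interaction -1.94, SE 0.785, adjusted p 0.498 by limma) and for Mrc1 0.89 and 2.42 (interaction -1.53, SE 0.779, adjusted p 0.630 by limma). Without sample 3 of the 21 DPI vehicle pools, 7 genes were called higher and 3 lower in this test. The absence of calls does not show that vehicle and 7aaRGD changed alike.

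**Figure D4:**
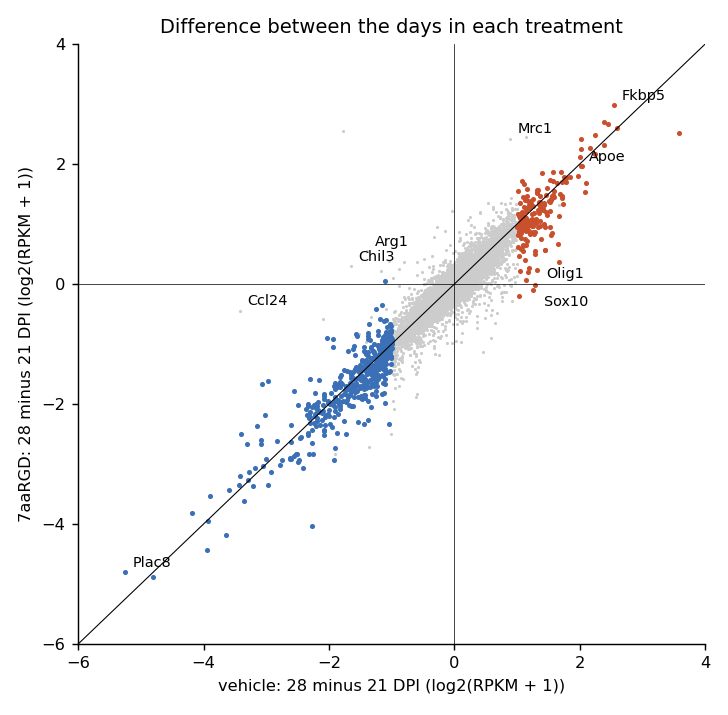
Difference between 28 and 21 DPI with 7aaRGD (vertical axis) against that with vehicle (horizontal axis), both in log2(RPKM + 1), 1 point per gene, with red and blue for the 186 and 464 genes counted as higher and lower with vehicle and a line of equal differences. Most colored points lie near the line, while Arg1, Chil3, Ccl24, Mrc1, Sox10 and Olig1 lie off it, and the tested difference passed the adjusted threshold for 0 genes.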

How the data were processed

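According to the methods and the labels, reads were trimmed (Trimmomatic), aligned to mm10 (STAR) and counted (HTSeq 0.11.1) by the authors. The deposited values behave as RPKM to which a constant of 2 had been added, as read from the values (rows without signal hold exactly 2). The sources used here do not describe this step. Between 5.50% and 6.73% of the values of each vehicle sample lay under the constant, which RPKM plus 2 alone cannot give. The levels and their spread may thus carry a further adjustment that is not described. Read numbers could not be recovered, so no count test was used. The differences between replicates lack nearly 1 dimension (7 of 8 at 21 DPI, 9 of 10 at 28 DPI), so the spread between replicates may be too small in both tables. Of 3 deposited tables, that of the U87-MG gliomas was not used here.

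The constant was subtracted, negative values were set to 0, and the 28 DPI table was scaled by the median of ratios. Symbols of 98.8% of 54513 rows matched the annotation, 21848 of them as protein-coding. Genes under a mean of 1 RPKM over the 7 samples were left out, and a pseudocount of 1 was added before the log2. The interaction was tested with limma 3.58.1 in R 4.3.3 (eBayes with a trend, 14 samples, Benjamini-Hochberg). Both procedures were run on simulated data with independent noise and no offset between the tables. Those runs could not examine the separate normalization of the tables or a dependence between replicates. Other steps used Python 3.11.15 with pandas 2.3.3. Same-numbered samples did not deviate in the same direction (0 of 7 pairs over 0.1), so no pairing was used. Their correlations, -0.77 to -0.01, were all negative, and a link in opposite directions was not tested.

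The samples, gene lists and comparisons were chosen with earlier results of these data known. The genes named are the 10 largest differences in each direction among counted genes with at least 5 RPKM, at most 5 members of each list by size of the difference or, where fewer than 2 were counted, by level, and the 5 most abundant genes of each day. Arg1, Chil3, Ccl24, Ccr2, P2ry12, Ccl3 and the mitochondrially encoded genes were added after their values were seen. A few list members are not reported here by name but enter the counts and medians of their lists. Alternatives were other scalings, pseudocounts, filters, call limits, a trend on gene length and GC content, a replicate block and leaving out each sample.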

Additional observations from a re-analysis of the deposited data

Results flagged for a closer look

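Within the 4 vehicle samples at 28 DPI, 172 sets of 4 values (named genes and the median log2(RPKM + 1) of each list) were examined. A sample was flagged where its gap to the next value was large relative to the range of the 4 values. In all, 8 sets were flagged, which is near the rate of about 1 in 20 that chance alone gives. Sample 1 was flagged as lowest for Siglec1 (21.38 RPKM). Sample 2 was flagged as lowest for Ifit1 (6.905 RPKM), Itgb7 (20.51 RPKM) and Ptprc, which encodes CD45 (21.52 RPKM). It was also flagged as lowest for the median log2 level of the integrin subunits (4.519) and of the iron-handling genes (6.623), and as highest for that of the astrocyte genes (2.732). Sample 3 was flagged as highest for the median log2 level of the neutrophil genes (4.131). A flag can mark a small gap in level. Ptprc was at 41.5, 44.7 and 55.4 RPKM at 21 DPI and at 24.3, 21.5, 24.5 and 24.2 RPKM at 28 DPI.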

How the results depend on the processing

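Depth is unknown, and day, table, pooling and antibody treatment changed together, so the comparison between the days stayed a description under every setting. Of 186 genes counted as higher and 464 as lower, a pseudocount of 0.1 gave 377 higher and a pseudocount of 5 gave 58 and 275, which follows from the weight of low values. A mean of at least 5 RPKM, which leaves fewer genes, gave 116 higher, and no overlap alone gave 2853 and 2805. Leaving out each sample gave 177 to 230 higher and 447 to 502 lower. No counted gene changed sign. The list medians nearest 0 did: with no scaling those of checkpoint molecules, complement and lysosomal genes became 0.022, 0.0020 and 0.061, and that of border-associated macrophages (-0.22) became 0.052 with no filter and 0.38 with a mean of at least 5 RPKM. Of the 136 genes examined, 18 of 23 counted as higher and 60 of 76 counted as lower kept their count under every alternative. Most of the others were low genes that fell under the limit with a pseudocount of 5, such as Mki67, Sox10, Olig1, Zbtb16, Il6 and Flt3. In the interaction test (0 higher, 0 lower), no filter gave 32 higher and 1 lower, all groups of both tables in 1 fit 11 higher and 0 lower, and an adjusted p under 0.1 16 and 1. Leaving out each sample gave 0 to 7 higher and 0 to 3 lower, with 7 and 3 without sample 3 of the 21 DPI vehicle group, 1 higher without sample 4 of the 28 DPI vehicle group and 3 higher without sample 2 of the 28 DPI 7aaRGD group. The cause of these changes was not tested. The replicate block gave 0 higher and 0 lower and so changed no call. Same-numbered samples did not deviate in the same direction, and a link in opposite directions was not tested.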
